A study of Mus musculus with 7 samples.

Results

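The genes described here are 10 members of the YAP and TEAD pathway (Yap1, Wwtr1, Tead1, Tead2, Ccn1, Ccn2, Ankrd1, Amotl2, Ajuba and Lats2), chosen by name from the 30879 genes of the expression table. All 10 were present. They were followed through the cell types of the mouse thyroid and through thyroid follicular cell organoids (TFCOs), which are three-dimensional cultures of the follicular cells (TFCs) that make thyroid hormone. Single-cell mRNA was measured by SORT-seq, a plate method for cells sorted by the absence of DAPI stain, in which each captured transcript is tagged with a unique molecular identifier (UMI).

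There were 2 samples of primary thyroid tissue, 3 of late passage TFCOs and 2 of early passage TFCOs, called tissue 1 and 2, late 1 to 3 and early 1 and 2. All came from wild type C57BL/6 mice, without treatment. Tissue was digested with collagenase I and TrypLE Express, whereas TFCOs were released from basement membrane extract with Cell Recovery solution and then dissociated with TrypLE Express. The ROCK inhibitor Y-27632, which lowers the actomyosin tension to which this pathway responds, was present during the collagenase digestion and in the sorting buffer of both sample types. TFCO medium held R-spondin 3, the TGF-beta receptor inhibitor A83-01, forskolin, EGF and FGF10, so growth in culture and the medium cannot be told apart in a comparison with tissue. The series states 2 biological replicates per description, the labels list 3 late samples, and the labels tie no sample to an animal or culture, so p-values measure the spread between these samples, which may in part be technical.

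The Hippo pathway is a kinase cascade that restrains growth in epithelia. Its LATS kinases phosphorylate the coactivators YAP (gene Yap1) and TAZ (gene Wwtr1), which keeps them out of the nucleus. When the cascade is quiet, as in stretched or spread cells, YAP and TAZ bind TEAD transcription factors and raise targets such as Ccn1 (CYR61), Ccn2 (CTGF), Ankrd1 and Amotl2. YAP and TAZ are controlled mainly at the protein level, so mRNA levels of the pathway's genes do not measure its activity.

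TEAD factors recognise the sequence GGAATG, read as CATTCC on the other strand. The stretches below show where these letters lie before the start of members that the results turn on. Sequences came from RefSeq (build GRCm38.p6), whose promoter table held 8 of the 10 members, all but Tead1 and Ccn2. They are written 5′ to 3′ on the strand of the gene with the motif in capitals. The first 2 are the 250 bases before the start of Ccn1 (chr3:145649986-145650235, minus strand) and of Ajuba (chr14:54577662-54577911, minus strand), shown whole because both genes were highest in mural-like cells. Neither window overlaps its own gene as annotated in GENCODE M21, and overlap with other genes was not examined.
Ccn1: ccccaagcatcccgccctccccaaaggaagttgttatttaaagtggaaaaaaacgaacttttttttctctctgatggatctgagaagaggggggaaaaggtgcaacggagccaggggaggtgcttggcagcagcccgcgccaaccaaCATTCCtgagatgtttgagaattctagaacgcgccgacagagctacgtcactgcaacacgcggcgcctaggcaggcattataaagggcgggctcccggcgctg
Ajuba: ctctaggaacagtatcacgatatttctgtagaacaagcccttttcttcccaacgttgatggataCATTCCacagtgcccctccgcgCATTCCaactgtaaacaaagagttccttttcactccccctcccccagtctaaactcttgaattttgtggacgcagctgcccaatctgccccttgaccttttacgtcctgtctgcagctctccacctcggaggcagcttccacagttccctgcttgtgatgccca
In these windows the motif began 103 bases before the Ccn1 start and 186 and 164 bases before the Ajuba start. Shorter stretches of 30 bases around the motif are given for Wwtr1 (chr3:57576029-57576058, minus strand), Yap1 (chr9:8004720-8004749, minus strand) and Amotl2 (chr9:102717727-102717756, plus strand), the coactivators and a target that ran with Wwtr1.
Wwtr1: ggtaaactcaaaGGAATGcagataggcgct
Yap1: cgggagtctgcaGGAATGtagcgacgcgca
Amotl2: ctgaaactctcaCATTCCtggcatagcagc
The Ankrd1 window held the motif as well, starting 210 and 123 bases before the start, and the Tead2 and Lats2 windows held none. Starts are those of RefSeq, and in GENCODE M21 the Amotl2 stretch, the Ankrd1 window and the Lats2 windows lie inside the gene. The Tead2 window runs past the annotated start of its gene. In all, 6 of the 8 members had it in the 250 bases before a start, against 14.4% of 27025 genes in the same table. A match describes the letters and not a bound site.

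Between 1406925 and 4703472 UMIs were recovered per sample. After cells under 1000 UMIs were removed, 2035 of 2590 cells remained, with median depths of 3608 and 3368 UMIs in tissue and between 5011 and 12380.5 UMIs in the TFCO samples. Cells were clustered without the 10 members and the wider pathway lists, and clusters were named from marker genes. The TFC-like class held 48 and 46 cells of tissue 1 and 2, 305, 332 and 239 of the late samples, and 209 and 300 of the early samples. In tissue there were also 177 endothelial-like and 57 immune-like cells, 54 mural-like cells and 22 stromal-like cells. Clusters of 81 cells of tissue 1 and 76 of tissue 2 stayed unnamed, as did a shallow TFCO cluster of 59 cells (28 of late 2, 26 of early 1, 3 of early 2 and 2 of late 3), which entered no comparison. TFC-like cells of tissue were the shallowest, with medians of 2331 and 2222 UMIs. Of the markers of TFCs, Tg, the precursor protein of thyroid hormone, the deiodinase gene Dio1 and Duoxa2 fell in TFCOs against TFC-like cells of tissue by limma, with log2 differences of -3.71, -1.40 and -0.45 (adjusted p 0.00262, 0.000533 and 0.0137). Others did not pass, among them Tshr (1.20, adjusted p 0.128), Pax8 (0.82, adjusted p 0.161) and Iyd (-1.38, adjusted p 0.0800). Pairs of samples shared 157 to 294 cell barcodes, which are the well barcodes used on every plate. Levels below are means over cells of UMIs per 10000 UMIs of the cell. Intervals are exact 95% Poisson intervals of the summed UMIs, and like the limits set by 3 UMIs they cover counting error only.

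In the gland the targets Ccn1 and Ccn2 were not highest in the cells where the coactivator Wwtr1 was. The mean of the target Amotl2 was highest in endothelial-like cells, as was that of Wwtr1, though other classes overlapped for Amotl2. Wwtr1 (TAZ) was highest in endothelial-like cells, at 3.73 in tissue 1 and 3.14 in tissue 2. It was at 2.42 and 2.11 in stromal-like, 1.32 and 1.49 in mural-like, 1.13 and 0.300 in TFC-like and 0.330 and 0.684 in immune-like cells. The first 3 of these classes did not overlap each other over the 2 tissue samples, whereas TFC-like and immune-like cells did. Yap1 differed far less between the classes outside the immune compartment. It was at 0.474 and 0.520 in endothelial-like, 0.494 and 0.486 in TFC-like and 0.475 and 0.296 in mural-like cells, and at 0.0945 and 0.0221 in immune-like cells. Stromal-like cells of tissue 1 gave 0.528 from 4 UMIs, and no UMI was found in the 7 stromal-like cells of tissue 2.

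Tead1, a TEAD factor, had yet another order. It was at 1.48 and 1.70 in mural-like cells, at 0.976 and 0.937 in endothelial-like and 0.878 and 0.980 in TFC-like cells, which overlapped, and at 0.335 and 0.429 in immune-like cells. Stromal-like cells gave 0.731 and 2.15 from 10 and 4 UMIs and cannot be placed. Tead2, its paralog, was scarce in every tissue class, with at most 10 UMIs per class and sample. Its level was 0.207 and 0.377 in TFC-like and 0.298 and 0.204 in endothelial-like cells, and these overlapped. Tead2 overlaps Cd37 on the other strand (chr7:45215753-45233644), and whether counting used strand is not given in the sources used here.

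The target genes split by class. Ccn1, a secreted matricellular protein, was at 1.38 and 1.76 in mural-like, 0.955 and 0.484 in endothelial-like and 0.0369 and 0.718 in immune-like cells, the last from 1 cell in each sample. In stromal-like cells Ccn1 was at 1.01 in tissue 1, from 7 UMIs in 3 of 15 cells. It had no UMI in the 7 stromal-like cells of tissue 2, where up to 1.31 remains possible, so its level in this class cannot be placed. In TFC-like cells it was at 0 in tissue 1 and at 0.0160 in tissue 2, below every value of mural-like and endothelial-like cells. The 0 of 127784 UMIs in tissue 1 allows a level of up to 0.235. Ccn2, a paralog of Ccn1, showed another pattern. It was at 1.38 and 2.42 in TFC-like and 0.745 and 2.04 in mural-like cells, which overlapped, and at only 0.0549 and 0.0285 in endothelial-like and 0 and 0.122 in immune-like cells. At least 1 Ccn2 UMI was found in 8 of 48 and 15 of 46 TFC-like cells, against 2 of 90 and 1 of 87 endothelial-like cells, although the endothelial-like cells were deeper (medians of 3736.5 and 4038 UMIs). In stromal-like cells Ccn2 was at 3.94 in tissue 1, carried by 5 of 15 cells, and had no UMI in the 7 cells of tissue 2, where up to 1.31 remains possible.

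Amotl2, an angiomotin family protein that binds YAP and is itself a target, was at 0.577 and 0.541 in endothelial-like cells. It was at 0.357 and 0.732 in stromal-like and 0.185 and 0.543 in mural-like cells, which overlapped with endothelial-like cells, and at 0 and 0.0320 in TFC-like cells. Ajuba, a LIM protein that binds LATS kinases, was detected in tissue mainly in 1 class. It was at 1.53 and 1.42 in mural-like cells, from 19 UMIs in 10 of 26 cells and 18 UMIs in 14 of 28 cells. In each of the other 4 classes it was at 0.105 or lower, and stromal-like cells held none. Up to 0.331 and 1.31 remain possible in stromal-like cells of tissue 1 and 2, so Ajuba cannot be placed in those of tissue 2. Immediate early genes, which dissociation of tissue can raise, summed over 15 genes to 31.6 and 32.0 in mural-like, 28.0 and 32.3 in endothelial-like, 26.0 and 16.7 in stromal-like and 40.5 and 24.1 in immune-like cells, against 2.51 and 6.08 in TFC-like cells. Their part in the levels of Ccn1, Amotl2 and Ajuba was not tested.

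**Figure D1:**
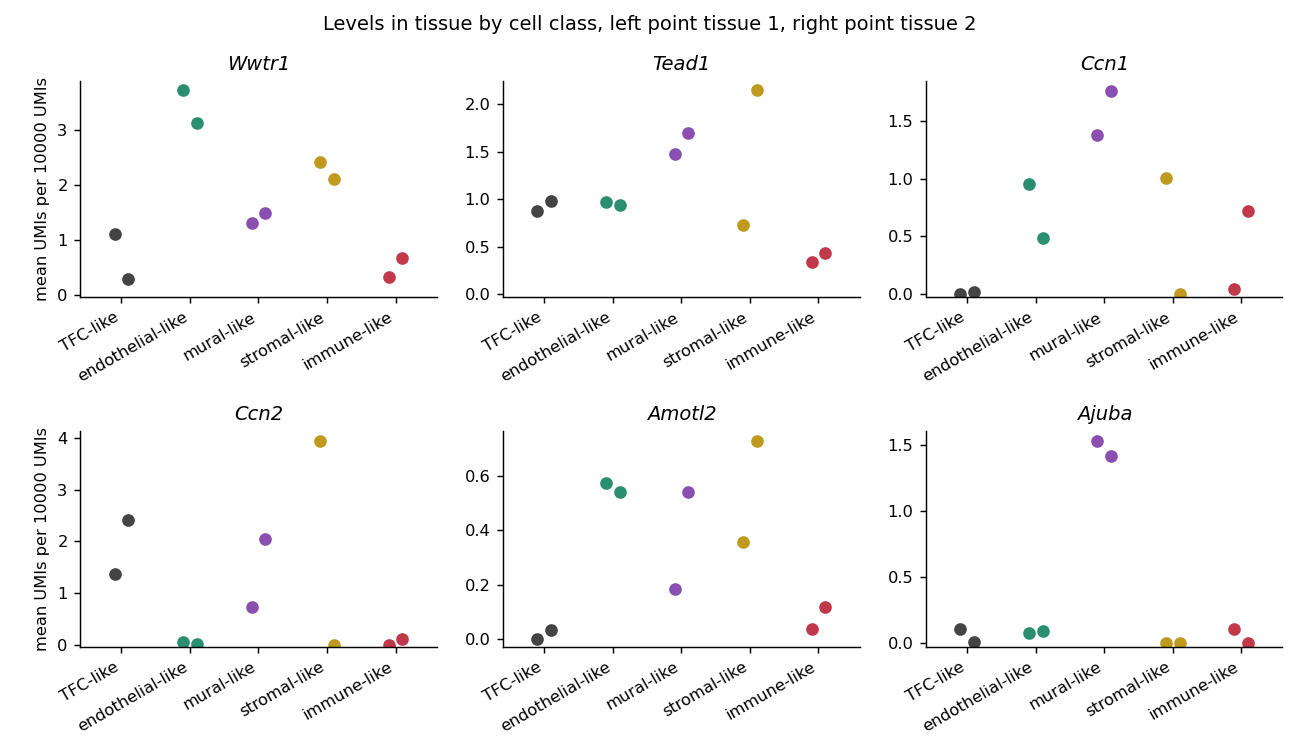
Mean UMIs per 10000 UMIs of 6 members in the 5 named tissue classes, with 1 point for each of the 2 tissue samples (left tissue 1, right tissue 2). Wwtr1 is highest in endothelial-like cells (3.73 and 3.14) and Ajuba in mural-like cells (1.53 and 1.42), and Ccn2 is near 0 in endothelial-like cells.

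Ankrd1, a nuclear ankyrin repeat protein used as a YAP reporter in many cell types, was almost undetected. Endothelial-like cells held 2 and 4 UMIs, each set in 1 cell, and immune-like cells of tissue 1 held 2 UMIs in 1 cell. TFC-like cells held a single UMI in late 2 and none in the other 6 samples, of which early 1, the deepest, allows up to 0.00987. Lats2, one of the kinases that phosphorylate YAP, had no UMI in TFC-like cells of tissue, and 4 in late 2, 1 in late 3, 4 in early 1 and 3 in early 2. In mural-like cells of tissue 2 it had 2. Of the 50-base stretches of Lats2 transcripts in GENCODE M21, 41.2% are also in the overlapping gene Gm49361, so Lats2 reads could have been split or dropped. Among the other members the shared part was at most 1.70%.

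The next comparison asks how follicular cells in culture differ from those of the gland. Ccn2 stood higher in every TFCO sample than in either tissue sample. It was at 1.38 and 2.42 in TFC-like cells of tissue, at 10.6, 6.61 and 14.4 in late 1 to 3, and at 6.26 and 11.8 in early 1 and 2. The groups did not overlap, and the TFCO mean was 5.21 times the tissue mean. On the log2 scale with 1 added, on which all differences below are given, Ccn2 was higher by 1.85 (SE 0.55). With limma over 12134 genes the adjusted p was 0.0642, which missed the threshold of 0.05.

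The Ccn2 call turned on how the values were handled. Under 20 alternatives the difference lay between 1.59 and 2.28, the adjusted p ranged from 4.98e-06 to 0.222, and 10 of them passed the threshold. It passed with genes under a mean of 0.5 left out (adjusted p 0.0119), with equal weights (0.00361) and without late 1 or late 2 (0.0467 and 0.0168). The first 2 of these fits called 1211 and 4165 of all genes, against 666 in the main fit. Ccn2 also passed without tissue 1 or tissue 2, in fits with equal weights and a lone tissue sample. With 1 sample left out its difference lay between 1.59 and 2.12. Ccn2 did not pass with UMIs summed over cells (adjusted p 0.222). After each cell was thinned to 1000 UMIs, 8.33% and 19.6% of tissue cells held a Ccn2 UMI, against 34.3% to 54.4% of cells in the TFCO samples. Unthinned, the shares were 16.7% and 32.6% in tissue and between 78.7% and 92.1% in TFCOs. Among TFCO cells that carried the same well barcode on different plates, Ccn2 had a correlation of 0.0574 and Tead1 of 0.0524, just above the limit of 0.05 used to drop genes from clustering. Ccn2 overlaps the noncoding gene Gm15270 on the other strand (chr10:24595442-24598683).

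**Figure D2:**
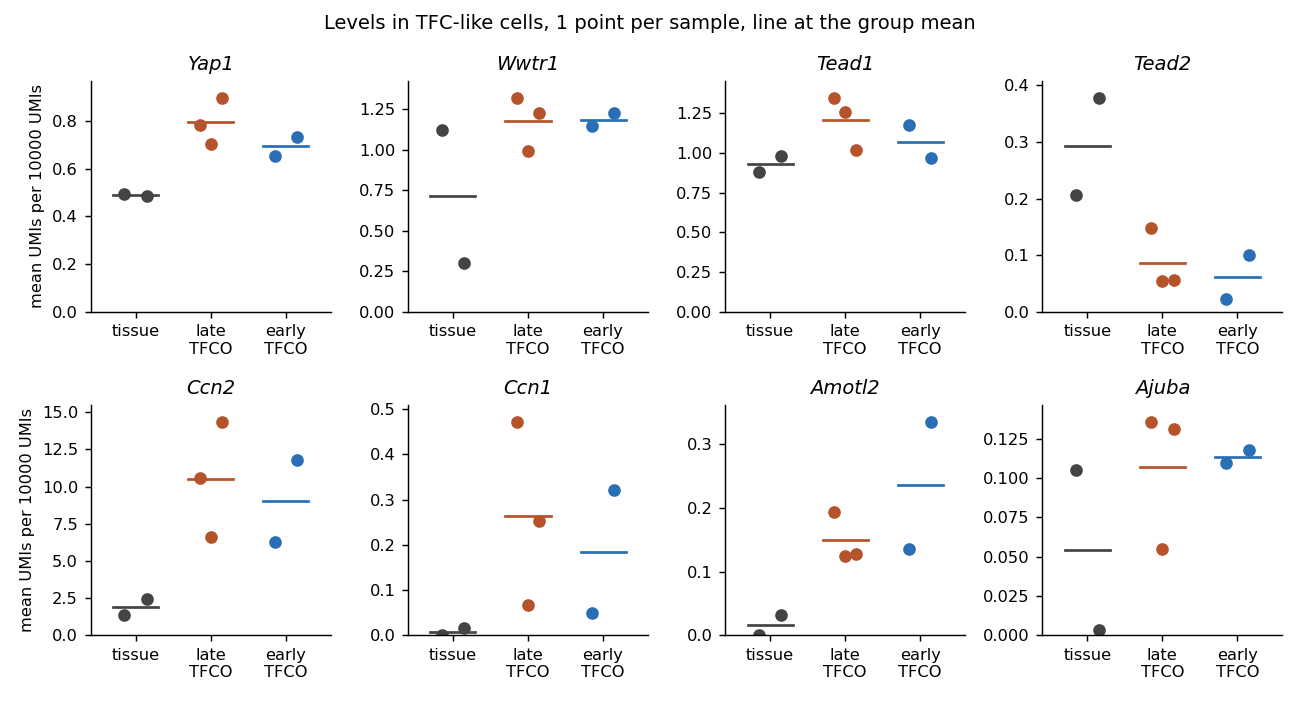
Mean UMIs per 10000 UMIs in TFC-like cells of 8 members, with 1 point per sample and a line at the mean of 2 tissue, 3 late and 2 early samples; each panel has its own axis from 0. The 5 TFCO samples lie above both tissue samples for Ccn2 (6.26 to 14.4 against 1.38 and 2.42), Yap1, Ccn1 and Amotl2, and below them for Tead2.

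The other targets lay near 0 in tissue. Ccn1 was at 0 and 0.0160 in tissue and at 0.472, 0.0664, 0.253, 0.0490 and 0.321 in late 1 to 3 and early 1 and 2. All TFCO samples were above tissue, but late 2 and early 1 were only just so, and the limit of 0.235 for tissue 1 spans them. The limma difference was 0.27 (SE 0.19, adjusted p 0.381). Tissue 2 held 19 Ccn1 UMIs in 2 cells, and its summed UMIs put it at 0.345, inside the TFCO range, with a difference of 0.09. Leaving out the 2 tissue 2 cells of over 100000 UMIs as well gave 0.30 (adjusted p 0.397). Amotl2 was at 0 and 0.0320 in tissue and between 0.125 and 0.335 in TFCOs, without overlap (log2 difference 0.23, SE 0.11, adjusted p 0.195). It passed with equal weights (adjusted p 0.0312), a fit that called 4165 of all genes against 666 in the main fit. Amotl2 also passed without tissue 2, in a fit with equal weights and a lone tissue sample. With 1 sample left out its difference lay between 0.17 and 0.29. Summed UMIs, with the 2 deep cells included, put tissue 2 at 0.127, above the 0.117 of late 2. Ajuba was at 0.105 and 0.00323 in tissue and between 0.0551 and 0.136 in TFCOs, and fell under the filter on low values with Ankrd1 and Lats2.

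Among the coactivators, Yap1 was at 0.494 and 0.486 in tissue, at 0.784, 0.705 and 0.896 in late, and at 0.652 and 0.735 in early samples. The groups did not overlap, yet the difference of 0.23 (SE 0.17) had an adjusted p of 0.393 and passed under none of 20 alternatives. Wwtr1 was at 1.13 and 0.300 in tissue and between 0.995 and 1.32 in TFCOs, so tissue 1 lay inside the TFCO range and tissue 2 far below it. Its difference was 0.39 (SE 0.22, adjusted p 0.262). It passed only when tissue 1 was left out (0.75), in a fit with equal weights and a lone tissue sample. The low mean of tissue 2 came from 5 of 46 cells with a Wwtr1 UMI. Summed UMIs gave 0.939 and 1.14 in the tissue samples against 0.911 to 1.28 in TFCOs, which overlapped, and a difference of 0.03 (limma adjusted p 0.955). The tissue 2 sum of 551273 UMIs includes the 2 cells of over 100000 UMIs, so its summed level leans on few cells.

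Neither TEAD gene passed the threshold. Tead1 was at 0.878 and 0.980 in tissue and at 1.34, 1.26, 1.02, 1.18 and 0.966 in the TFCO samples, which overlapped tissue (0.15, SE 0.21, adjusted p 0.674). Tead2 was at 0.207 and 0.377 in tissue, from 4 and 7 UMIs, and between 0.0224 and 0.147 in TFCOs. The groups did not overlap, and the difference of -0.27 (SE 0.10) had an adjusted p of 0.113. It passed with samples centred on the median gene (-0.37, adjusted p 0.0360) and with equal weights (adjusted p 0.0176). The fit with equal weights called 4165 of all genes, against 666 in the main fit. Tead2 also passed without tissue 1 or tissue 2, in fits with equal weights and a lone tissue sample. With 1 sample left out its difference lay between -0.36 and -0.17.

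Of the 10 members, 7 passed the filter on low values and 0 of these were called, against 5.49% of all genes tested (666 genes). Of all genes 2.98% were called higher and 2.51% lower in TFCOs. At an unadjusted p under 0.05 there were 2, Ccn2 and Tead2, a share near that of all genes tested (3386 of 12134). The groups did not overlap for 4 of the 7 with TFCOs higher, against 35.6% of all genes, and for 1 with TFCOs lower, against 10.1%. The median difference over the 7 was 0.23, beside 0.11 over all genes tested.

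TFC-like cells of tissue also carried more RNA of genes that mark other cell types, and whether it came from such cells was not tested. Their summed endothelial markers were at 7.87 and 10.5, against 1.28 to 2.48 in TFCOs, with 2 (Egfl7 and Cldn5) and 1 (Egfl7) of 10 markers at 0. Immune markers were at 16.7 and 7.998 against 0.198 to 0.815, with 3 (Lyz2, Cd3e, Cd79a) and 2 (Cd3e, Cd79a) of 11 at 0. Of the immune markers tested, Cd74 and H2-Aa differed most between TFCOs and tissue (log2 differences of -2.73 and -2.20). Mural markers were at 2.86 and 4.93 against 0.332 to 1.39, with 3 (Tagln, Kcnj8, Des) and 0 of 10 at 0. Stromal markers were at 2.48 and 2.00 against 0.256 to 0.785, with 3 of 9 at 0 in both, Pdgfra and Mfap5 among them. Immediate early genes were at 2.51 and 6.08 in TFC-like cells of tissue and between 4.95 and 10.2 in TFCOs, which overlapped. Ccn2 itself was at most 0.122 in endothelial-like and immune-like cells of tissue, at 0.745 and 2.04 in mural-like cells and at 3.94 in stromal-like cells of tissue 1. The part of this RNA in the members' levels was not tested.

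The counts of called genes in the lists around the members stand against the 5.49% called over all genes, and with lists of this size they were not tested against it. Of 30 Hippo kinases and scaffolds, 28 were tested, and 2 rose in TFCOs and none fell. These were Ptpn14, a phosphatase that holds YAP in the cytoplasm (0.64, SE 0.17, adjusted p 0.0443), and Lats1, a YAP kinase (0.63, SE 0.17, adjusted p 0.0472). Ptpn14 was at 0.156 and 0.0928 in tissue and between 0.682 and 0.983 in TFCOs, and Lats1 at 0.0356 and 0.151 against 0.534 to 0.847. Both stood clear of tissue, but neither passed once samples were centred on the median gene (adjusted p 0.0738 and 0.0802). Without early 1 neither passed, and they passed under 15 of 20 and 14 of 19 alternatives. Across the list 25 of 28 genes had a difference above 0, with a median of 0.33. The median over all genes tested was also above 0, at 0.11, and the list was not tested against it.

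Of 11 TEAD family members and partners, 6 were tested and 2 fell. Runx2, a runt factor that can bind YAP, was at 2.56 and 1.53 in tissue and between 0.329 and 0.927 in TFCOs (-0.99, SE 0.22, adjusted p 0.0249). Runx2 did not pass with cells of at least 2000 UMIs or with summed UMIs, and its difference ranged from -1.81 to -0.33 over the alternatives. Jun, a subunit of AP-1, which works beside TEAD at many enhancers, was at 0.570 and 1.07 in tissue and between 0.0323 and 0.293 in TFCOs (-0.69, SE 0.17, adjusted p 0.0326). Jun passed under 11 of 19 alternatives and was lost, among others, without early 1, without early 2 and with summed UMIs.

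Of 22 genes of a published YAP/TAZ target signature, which contains 5 of the members, 16 were tested. Ptpn14 rose and Axl, a receptor tyrosine kinase, fell, from 0.382 and 0.688 in tissue to between 0.0551 and 0.117 in TFCOs (-0.48, SE 0.11, adjusted p 0.0270). Axl passed under 15 of 19 alternatives and was lost without early 1, with cells of at least 2000 UMIs, with summed UMIs and with late 1 and 2 alone, unpaired. Immediate early and stress genes gave 1 rise and 2 falls among 12 tested. Egr1 rose from 0.0328 and 0.672 to between 2.00 and 3.42 (1.42, SE 0.31, adjusted p 0.0230), while Jun and the small heat shock protein gene Hspb1 fell. Of 12 actin and focal adhesion genes tested, 2 fell, the calponin Cnn2 (-0.82, SE 0.19, adjusted p 0.0277) and the myosin light chain Myl9 (-0.43, SE 0.09, adjusted p 0.0161). Egr1 did not pass with cells of at least 2000 UMIs or with summed UMIs. Hspb1 was lost with late 1 and 2 alone, unpaired, Cnn2 with a pseudocount of 0.1, and Myl9 with summed UMIs, with no filter and with late 1 and 2 alone, unpaired.

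**Figure D3:**
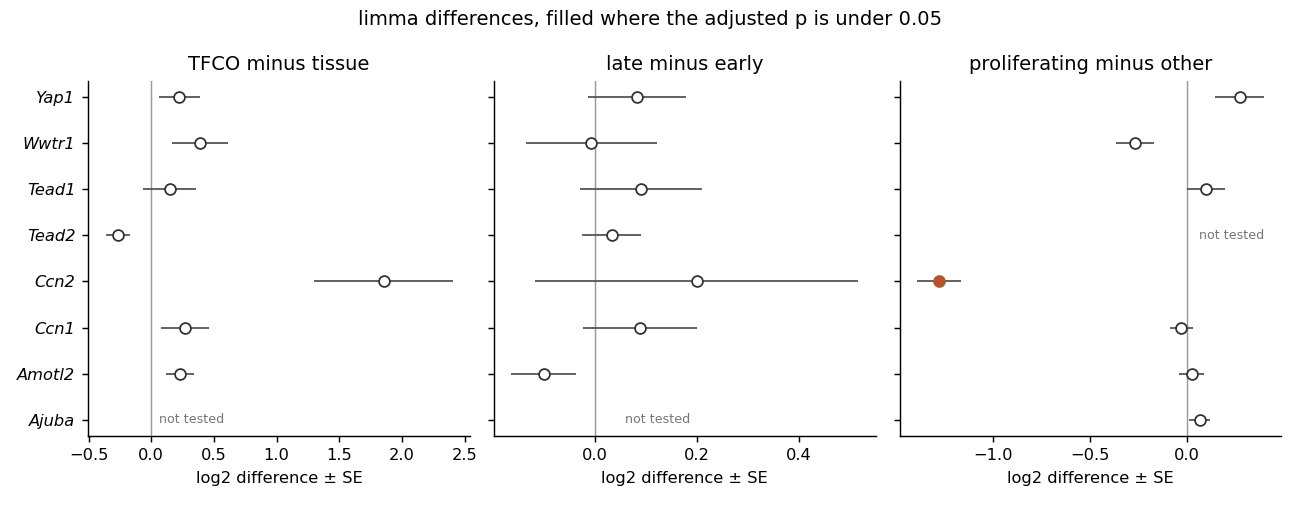
Differences in log2(mean UMIs per 10000 + 1) with standard errors from limma for 8 members in the 3 comparisons, with a separate axis for each panel; filled points have an adjusted p under 0.05. Ccn2 has the largest difference of the plotted members between TFCOs and tissue (1.85) without passing, and is the member that passes between proliferating and other cells (-1.28).

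The next comparison asks whether the members changed with passage. No member differed between late and early TFCOs at the threshold. The call rate in this comparison was 0.00824%, or 1 of 12134 genes, although 2297 genes had an unadjusted p under 0.05, none of them a member. The groups overlapped for all 7 members tested, where 14.7% of genes were higher and 24% were lower in late samples without overlap. Ccn2 was higher in late samples by 0.20 (SE 0.32, adjusted p 0.759), and this turned to -0.21 without early 1 and to -0.04 without late 3. The differences of the other 6 lay between -0.10 for Amotl2 (SE 0.06, adjusted p 0.399) and 0.09 for Tead1 (SE 0.12, adjusted p 0.707). Without early 1, Amotl2 was lower in late samples by -0.22 and passed (adjusted p 0.0370), in a fit where early 2, the highest TFCO sample for Amotl2, stands alone for early passage, its spread is taken from the other groups and 1042 genes are called.

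Samples of the same passage differed in Ccn1 and Ccn2. Ccn1 was at 0.0664 in late 2 and 0.0490 in early 1, with intervals of 0.0536 to 0.107 and 0.0301 to 0.0855 on the summed scale. In late 1, late 3 and early 2 it was at 0.472, 0.253 and 0.321, with summed intervals that start at 0.406, 0.208 and 0.277. Late 2 and early 1 were thus low and the other 3 TFCO samples high, across both passages. Ccn2 was likewise lowest in late 2 and early 1 (6.61 and 6.26), with the other samples at 10.6 or more. Among those 3 samples Ccn2 ran in the reverse order of Ccn1. Late 2 and early 1 were also the deepest, with 12806 and 12628 UMIs per TFC-like cell at the median, and the part of depth was not tested. After thinning, the share of cells with a Ccn2 UMI was 34.3% and 34.4% in late 2 and early 1 and 47.2%, 54.4% and 52.0% in late 1, late 3 and early 2.

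TFCO cells that were proliferating held less Ccn2. Cells with a UMI of at least 5 of 10 proliferation markers (Mki67, Top2a, Cdk1 and others) were compared with the remaining TFC-like cells of the same sample, in the 3 samples with at least 15 such cells. Ccn2 was at 2.36 in 63 proliferating and 7.61 in 269 other cells of late 2, at 6.24 in 16 and 14.9 in 223 cells of late 3, and at 2.33 in 46 and 7.37 in 163 cells of early 1. Proliferating cells were lower in all 3. Ccn2 fell by 1.28 on the log2 scale (SE 0.11, limma adjusted p 6.96e-05, 11867 genes tested). In late 1 and early 2, with 13 proliferating cells each and outside the fit, Ccn2 was also lower, at 6.13 against 10.8 and at 9.01 against 11.9.

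**Figure D4:**
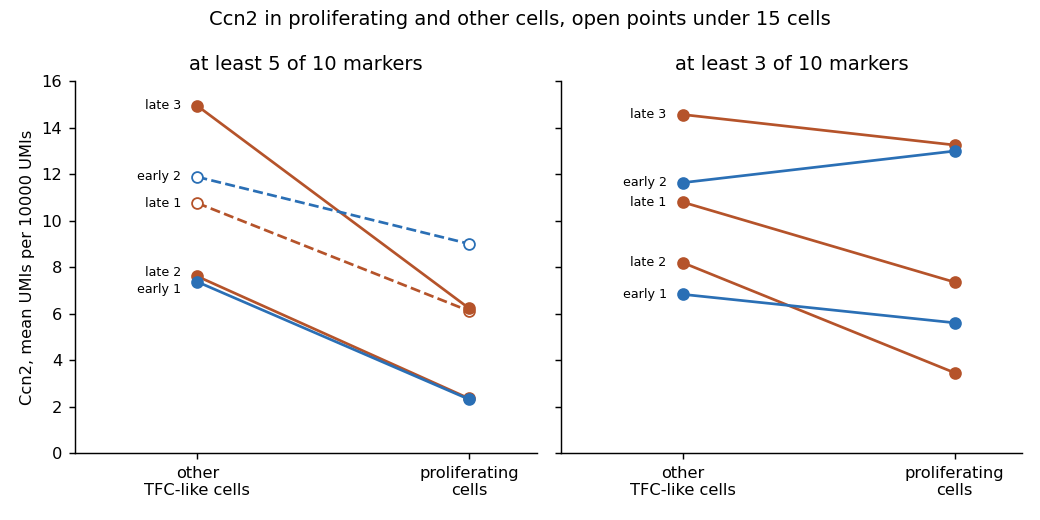
Mean Ccn2 UMIs per 10000 UMIs in proliferating and other TFC-like cells of each TFCO sample, joined by a line, for cells with at least 5 (left) or at least 3 (right) of 10 markers; open points and dashed lines mark samples with under 15 proliferating cells. On the left Ccn2 is lower in proliferating cells of all 5 samples (log2 differences of -1.36 to -0.36), and on the right it is higher in early 2 by 0.15.

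That fall depended on how proliferating cells were defined. With a UMI of at least 3 markers, which admitted all 5 samples, the difference was -0.35 (SE 0.13, adjusted p 0.234) and was no longer called. In that setting Ccn2 was at 7.36 against 10.8 in late 1, 3.47 against 8.19 in late 2, 13.3 against 14.6 in late 3 and 5.61 against 6.83 in early 1. In early 2 it was higher in proliferating cells, at 13.0 against 11.6. Proliferating cells were deeper than the others, for instance 21495.5 against 11031 UMIs at the median in early 1. With at least 5 markers and every cell thinned to 1000 UMIs, the difference was -1.29 and passed. The cells compared were the same as without thinning, because proliferating cells were chosen from unthinned UMIs. Random thinning also leaves the expected mean level unchanged. This setting therefore cannot show what part depth had in the choice of cells or in the Ccn2 difference. The difference with at least 5 markers also passed when each of the 3 samples was left out, between -1.34 and -1.24.

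The TFCO clusters, made without Ccn2, gave a finer view of the same cells. In the cluster led by genes of mitosis (Cenpf, Cenpa, Mki67), Ccn2 was at 2.23 in 43 cells of late 2 and at 2.35 in 34 cells of early 1, the lowest of the 4 and of the 3 clusters compared there. In the cluster led by replication genes (Rrm2, Pcna, Mcm6), it was at 5.90 in 19 cells of late 2. In the largest cluster of both samples, led by Dcpp3, Dcpp2 and Sftpb, it was at 8.51 and 7.91. The cluster of mitosis genes was thus the low one, and these levels are a description of clusters and carry no test.

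No other member passed between proliferating and other cells. In all, 1 of the 7 members tested was called, against 2.8% of all genes (0.632% lower and 2.17% higher in proliferating cells). Wwtr1 was at 0.846 against 1.03 in late 2, 0.800 against 1.26 in late 3 and 0.769 against 1.25 in early 1, lower in each (-0.27, SE 0.10, adjusted p 0.221). Outside the fit it was at 1.75 against 1.30 in late 1, the other way, and at 0.912 against 1.24 in early 2. Yap1 was higher in each, by 0.27 (SE 0.13, adjusted p 0.352), most of all in late 3 (1.91 in 16 cells against 0.823). Without late 3 the Yap1 difference was 0.07, and without late 2 it was 0.40. The differences of Tead1, Ccn1, Amotl2 and Ajuba lay between -0.03 and 0.10, and Tead2 was not tested. Of the pathway lists, Tpm4, a tropomyosin, rose (0.59, SE 0.12, adjusted p 0.0171), though not when cells were thinned or when early 1 was left out. No Hippo kinase or scaffold passed among 27 tested. Genes that mark TFCs were also lower in proliferating cells, among them Tg (-0.84, SE 0.18, adjusted p 0.0268), Nkx2-1 (-0.51, SE 0.11, adjusted p 0.0305) and Slc5a5 (-0.50, SE 0.10, adjusted p 0.0172), and their part in the Ccn2 difference was not tested.

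Ccn1 was also uneven among TFCO clusters. Ccn1 was left out of the clustering and came sixth among the leading genes of a cluster of 169 cells led by Timp3, Plekhs1, Sprr2f and Limch1. Leading genes were ranked against all other TFCO cells pooled over samples. Nearly all cells of this cluster came from late 1, late 3 and early 2, where Ccn1 was high, so the rank mixes sample and cluster differences. Within samples Ccn1 was at 1.31 in 52 cells of late 1, 0.343 in 51 cells of late 3 and 0.929 in 65 cells of early 2, the highest cluster in each. In late 3 the next cluster was level with it, at 0.341. Ccn2 in the same cells was between 15.5 and 17.4, first or second among the clusters of each sample. Across single TFCO cells the 2 genes were nearly unrelated within samples, with Pearson correlations of 0.0179 to 0.188 and a median of 0.123, in sparse counts.

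Over 15 means (5 tissue classes in 2 samples and TFC-like cells of 5 TFCO samples), members fell into different patterns. These correlations are descriptions, since the means share libraries and vary in depth and cell number. Ccn1 and Ccn2 had an r of -0.143, whereas Yap1 and Ccn2 had 0.798, Wwtr1 and Amotl2 0.809, and Ccn1 and Ajuba 0.676. The genes most like Ccn2 among 12965 were Mesd (r = 0.957), Scin, Me1, Cdcp1 and Appl2. Those most like Yap1 were Maged1 (r = 0.955), Rcn2, Synrg, Btg3 and Strap, and those most like Ccn1 were Hlf (r = 0.902), Gm4022, Slc2a9, Ldb1 and Dapk2.

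**Figure D5:**
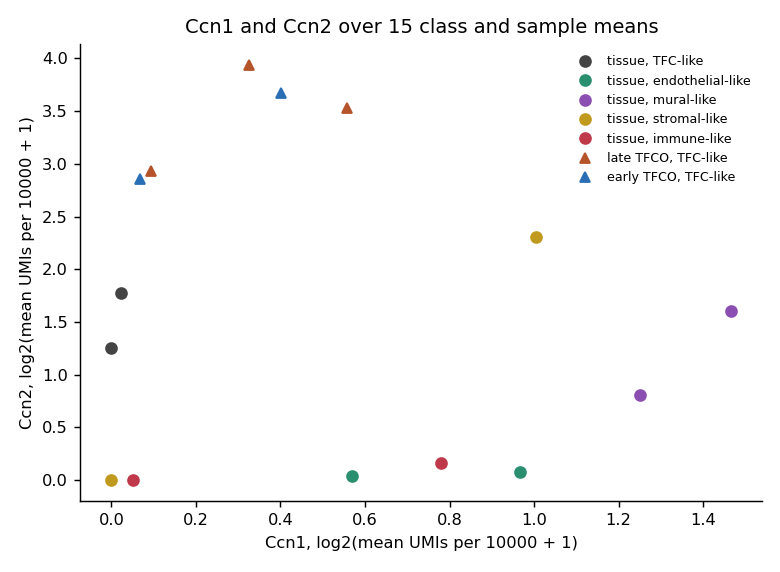
Ccn1 against Ccn2, each as log2(mean UMIs per 10000 + 1), for 5 tissue classes in 2 samples (circles) and TFC-like cells of 5 TFCO samples (triangles). TFC-like cells of TFCOs hold the most Ccn2 (6.26 to 14.4), with Ccn1 between 0.0490 and 0.472. Endothelial-like cells hold Ccn1 at 0.955 and 0.484 with little Ccn2, and r over the 15 points is -0.143.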

How the data were processed

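The deposited values, in a single table of 30879 genes in 2590 cells, are the natural log of 1 plus UMIs per 10000 UMIs of the cell. Per the labels, reads were processed with Trim Galore 0.4.3, STAR 2.5.3a and Seurat on GRCm38 (mm10). The counter, annotation and cell filter are not given in the sources used here.

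The log was undone, each cell was divided by its smallest value, and 100% of non-zero values were whole within 0.01, which assumes that the smallest value is 1 UMI. Cells of at least 1000 UMIs were clustered with scanpy 1.11.5 (2000 variable genes, 30 components, 15 neighbours, Leiden resolution 1), tissue and TFCOs apart, leaving out members, pathway lists and genes whose level followed the well barcode (correlation above 0.05). Clusters were named when at least 3 markers were detected. A cluster whose median depth relative to its own samples was under 0.333, with no own marker among its 10 leading genes, stayed unnamed, which held for a TFCO cluster at 0.296. In tissue an own marker among the 10 leading genes was required as well, a rule added after the clusters had been seen. In TFC-like clusters 10 tissue and 13 TFCO cells scoring higher for C cell, parathyroid or erythroid markers than for TFC markers were set aside. Scores for endothelial, mural, stromal and immune markers were not used to set cells aside. Doublets were not called, since sorting was into single wells.

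Per-sample means were tested as log2(mean + 1) in R 4.3.3 by moderated tests with a mean-variance trend (limma 3.58.1, Benjamini-Hochberg adjustment, threshold 0.05), for genes with a mean of at least 0.1 per 10000. Tissue and TFCO samples had estimated weights of 0.335 and 1.55, and TFCO against tissue is the mean of late and early minus tissue. Proliferating and other cells were compared with the sample as a term. The limma script was tested on simulated data. The log-scale difference understates changes of low genes. Tissue class levels carry no test. Planned count-model fits on summed UMIs were replaced by limma on the sums, because the deposited values are logs.

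All 10 members are named in each comparison. From the other lists the genes past the threshold are named, up to the 4 largest per list, and the 5 genes most like Ccn1, Ccn2 and Yap1. The members and lists were chosen with earlier results of these data known. Replicate numbers were taken from the labels. The number shared by tissue and late samples paired nothing (correlation of deviations -0.0169). One marker gene is not reported here, nor are sums and counts over its list.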

Additional observations from a re-analysis of the deposited data

Results flagged for a closer look

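In the comparison of proliferating and other TFC-like cells, with a UMI of at least 3 of 10 markers, the Ccn1 difference of late 1 (0.17 on the log2 scale) stood apart from those of the other 4 TFCO samples, which lay between -0.02 and 0.03. It rests on 9 Ccn1 UMIs in 21 proliferating cells. Of 16 groups examined in this way 1 stood out, where chance gives about 1 in 20.

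Cells under 1000 UMIs, which entered none of the comparisons, held Ccn2 as well. Summed over such cells, Ccn2 was at 5.08, 3.17 and 12.1 UMIs per 10000 in late 1 to 3 and at 3.49 and 7.84 in early 1 and 2, against 0.217 and 0.355 in tissue 1 and 2. The lowest TFCO sample (3.17, interval 0.865 to 8.13, 4 UMIs in 22 cells) was above the highest tissue sample (0.355, interval 0.0429 to 1.28), although these intervals overlap. The tissue cells there were not classed, so TFC-like cells cannot be told apart from others.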

How the results depend on the processing

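For TFCOs against tissue the count of 666 genes moved to 1043 with a pseudocount of 0.1, 1211 with a minimum mean of 0.5, 4165 with equal weights, 276 with cells of at least 2000 UMIs and 220 with UMIs summed over cells. Leaving out 1 sample gave 315 (without early 1) to 5346 genes (without tissue 2, with 5294 without tissue 1), where samples had equal weights without a tissue sample, and a lone tissue or early sample was assumed to vary like the other groups. Centring on the median gene turned 362 higher and 304 lower genes into 184 and 584. A replicate block on the numbers shared by late 1 and 2 and tissue called 2175 genes, against 1055 for the same 4 samples unpaired; with the block, Ccn1 passed (0.31, adjusted p 0.0281). For late against early the single gene became 4 with a pseudocount of 0.1, and 1 to 1042 (without early 1, with 3 without late 2) with 1 sample left out. For proliferating against other cells 332 became 59 without a filter and 69 after thinning, and 351 to 684 (without late 3) with 1 sample left out. In mural-like cells Ccn1 moved to 1.22 when cells were classed by their own markers, Ajuba to 1.79, 1.74 and 1.02 (at least 2000 UMIs, summed UMIs, own markers), and Tead1 to 1.78 (at least 2000 UMIs). The causes were not tested. The direction of each tested member against tissue was kept under all its alternatives, 19 or 20 per member, and no called member reversed. Alternatives with summed UMIs, with the 2 deepest tissue cells left out and with late 1 and 2 unpaired were chosen after seeing the data. The planned count-model fits were not run. Tissue rests on 48 and 46 TFC-like cells, shallower than TFCO cells, so a gene with no UMI in tissue 1 could still be at up to 0.235 per 10000 there.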
